A study of Mus musculus with 5 samples.

Results

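The RNA of the dentate gyrus (DG) of mice that ran the longest distances (H-RUN) was compared directly with that of mice kept in a complex environment without running (CE), gene by gene. The difference of the regularized log (rlog) values, H-RUN minus CE, was taken for the 13550 of 23420 gene symbols whose mean over the 5 libraries of the series was at least 5. It used 2 of these 5 libraries. An rlog value is a read count on the log2 scale that was normalized for library size and drawn towards the mean of its gene, so a difference of 0.3 is a ratio of 1.23 and the ratio of the unshrunken counts can be larger. The rule kept Pcdhb6, at a mean of 5.0003, and left out Cubn, at 4.9991. Of the symbols left out, 4588 had the value 0 in every library. None of the 9870 left out differed by 0.3, and the largest difference among them was 0.256 in size.

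All mice were wild-type males of the outbred CD1 strain, and the labels give an age of 4 months. H-RUN mice lived alone for 4 weeks with a disk on which they could run, and RNA of the 4 mice with the longer running distances was pooled into 1 library. CE mice lived for 4 weeks in groups of 3 per cage with a disk that was locked and tunnels that were moved, and RNA of 8 mice was pooled into 1 library. The pair thus differed in running, in company and in tunnels, and these cannot be told apart. H-RUN mice were also picked afterwards by their running distance among outbred runners, whereas CE mice were not picked. Traits of mice that run far therefore cannot be told apart from effects of housing either. The other 3 libraries give context: LD (8 mice, each alone with a locked disk), L-RUN (the 4 runners with the shorter distances) and RUN, in which all 8 runners, high and low, were pooled. Each group is 1 pooled library with no replicate, so no test between conditions was possible and values are given as differences between libraries. Read depth is unknown, since the deposited values hold no counts. Tissue from a dissection holds many cell types, and fewer cells of a type cannot be told apart from less RNA per cell.

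The DG is the entry station of the hippocampal circuit, where granule cells receive input from the entorhinal cortex and send mossy fibers to CA3. New granule cells are born there throughout life, and running is known to raise their number. Granule cells switch on a known set of genes when they fire, among them transcription factors, growth factors and peptide precursors. Around them lie inhibitory interneurons, glia, vessels and the fibroblasts of the leptomeninges, which make most of the fibrillar collagen of the brain. Markers of granule cells were present in both libraries. All 15 listed markers passed the limit on the mean, their differences ran from -0.17 to 0.35, and Prox1, the transcription factor that defines them, was at 11.86 in CE and 11.93 in H-RUN.

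Between H-RUN and CE, 144 genes (1.06% of the 13550) differed by at least 0.3. Of these, 48 (0.354%) were higher in H-RUN and 96 (0.708%) were lower. The enkephalin precursor Penk, the secreted factors Nptx2 and Bdnf and the kinase Sgk1 stood on the higher side. Decorin, collagen chains, the serotonin receptor Htr2c and several imprinted genes stood on the lower side. The differences had a median of 0.00026 over all 13550 genes and an SD of 0.0931.

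**Figure D1:**
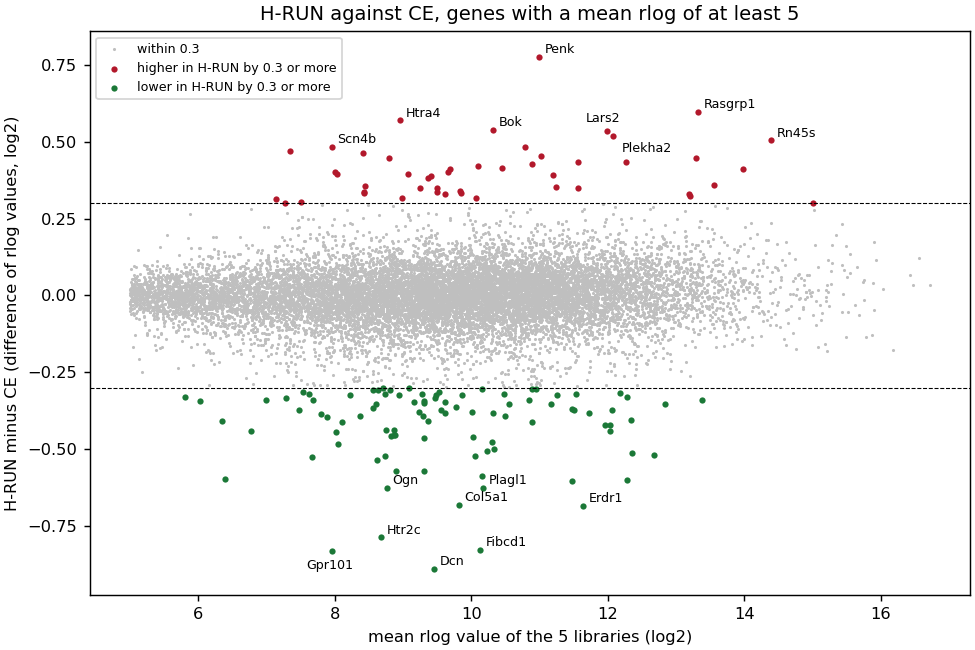
H-RUN minus CE (difference of rlog values, log2, vertical axis) against the mean rlog value of the 5 libraries (log2, horizontal axis), 1 point per gene for 13550 genes, with dashed lines at 0.3 on each side of 0. The 48 red points are genes higher in H-RUN and the 96 green points are genes lower, and the 8 largest of each side are named.

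The size of these differences can be set against the technical error of the libraries. The RUN library should equal a mixture of L-RUN and H-RUN, and the residual from that mixture, scaled to a difference between a pair of libraries, gave a technical SD of 0.0365. It ran from 0.0222 to 0.0473 over deciles of expression. The limit of 0.3 is 8.23 of these SDs. Before the scaling, which enlarges residuals, no gene had a residual of 0.3 and the largest was -0.279. With the scaling this largest residual passes 0.3 in size, so a single gene can reach the limit by technical error. All 144 genes lay past 3 of these SDs, which the limit of 0.3 ensures even at 0.0473. This error holds library preparation and sequencing but not the variation between mice, for which the design has no measure. It leaves out dissection and RNA extraction too, since the running libraries pooled RNA of the same mice. The CE library had no part in it.

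The other comparisons with the same libraries give the background for the count. RUN against CE, which shares the CE library and 4 of the mice, had 113 genes past 0.3 (0.834%), 40 higher (0.295%) and 73 lower (0.539%). L-RUN against CE had 256 (1.89%), 69 higher (0.509%) and 187 lower (1.38%). H-RUN against LD had 112 (0.827%), 48 higher (0.354%) and 64 lower (0.472%). CE against LD had 81 (0.598%), 45 higher (0.332%) and 36 lower (0.266%). Lower values were the larger side in each of the 3 comparisons of runners with CE, which share the CE library.

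The values of the LD library, itself a single library whose differences from CE followed GC content and length more closely than those of H-RUN did, can be set beside these genes. Of the 48 genes higher in H-RUN than in CE, 23 were also at least 0.3 higher in H-RUN than in LD, 6 were at least 0.3 lower in CE than in LD, none did both and 19 did neither. Of the 96 lower genes, H-RUN lay at least 0.3 below LD in 24, CE lay at least 0.3 above LD in 30, both held in 4 and neither in 46. H-RUN was the highest of the 5 libraries for 37 of the 48 higher genes, and CE was the highest for 79 of the 96 lower genes. Among all 13550 genes, H-RUN was the highest library in 14.7% and CE in 22.9%. The rule of a difference between these libraries favours such ranks, so they describe the genes and support nothing further. The median difference of the 48 higher genes was 0.39 in H-RUN against CE, and these genes had a median of 0.31 in RUN and 0.20 in L-RUN against the same CE library. For the 96 lower genes the medians were -0.38, -0.32 and -0.24.

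The differences followed the GC content of transcripts but not their length. This pair of libraries was chosen with its near lack of a trend with length already known, so that value describes the choice and is no finding. Across the 13451 genes with an annotated transcript (99.3%), the Spearman correlation of H-RUN minus CE with transcript length was 0.0102, against -0.302 for L-RUN minus CE and 0.326 for LD minus CE. With GC content it was -0.386, against -0.278 for RUN minus CE, -0.209 for L-RUN minus CE and -0.559 for LD minus CE. The trend with GC content was thus stronger in H-RUN minus CE than in the other comparisons of runners with CE. These are descriptions across genes of the same libraries, and genes are not independent. From the decile of genes with the lowest GC content to that with the highest, the median difference went from 0.052 to -0.045. The median GC content was 48.9% for the 48 higher genes, 53.1% for the 96 lower genes and 49.8% for all genes. After removal of this trend 136 genes lay past 0.3, among them 121 of the 142 with a GC value that lay past it before.

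**Figure D2:**
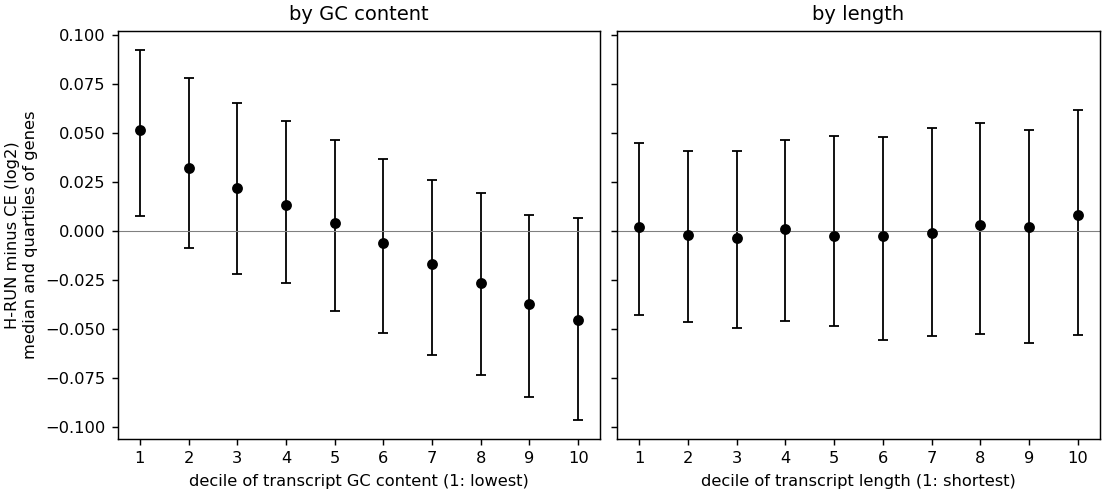
Median of H-RUN minus CE (log2) in deciles of genes by GC content of the transcript (left) and by its length (right), with bars from the lower to the upper quartile of the genes. The median falls from 0.052 to -0.045 with GC content and stays near 0 with length.

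Penk, which encodes the precursor of the enkephalins, opioid peptides of neurons, had the largest difference on the higher side. Its rlog value was 10.52 in CE and 11.29 in H-RUN, and 10.46 in LD, 11.32 in RUN and 11.37 in L-RUN. The difference was 0.78 (1.71-fold), and all 3 running libraries, of which RUN pools the mice of the others, lay above both libraries without running. Within the runners H-RUN was slightly below L-RUN. Chgb, which encodes chromogranin B of the dense core vesicles that store peptides, was at 13.77 in CE and 14.18 in H-RUN (difference 0.41), with L-RUN at 13.92 near LD at 13.93. Of 21 neuropeptide and granin genes measured, Penk and Chgb were the ones past 0.3, both higher, and the list had a median of -0.07. Sst, the peptide of a class of interneurons, was lowest in the list at -0.29, and it is named after its value was seen. None of the 3 opioid receptor genes measured differed by 0.3, and Oprl1, the nociceptin receptor, was farthest from 0 at -0.20.

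Of 43 activity-regulated genes measured, 4 were at least 0.3 higher in H-RUN and 1 was lower, and the list had a median of -0.05. Those higher were Rgs4, a regulator of G protein signaling (0.43), Nptx2, a pentraxin secreted at excitatory synapses (0.41), Bdnf, the neurotrophin (0.35), and Ptgs2, the inducible cyclooxygenase (0.35). Bdnf was at 11.08 in CE, 11.07 in LD, 11.26 in L-RUN, 11.33 in RUN and 11.43 in H-RUN. H-RUN was thus above L-RUN, and both were above CE and LD. Nptx2 showed this too, with 9.51 in CE, 9.50 in LD, 9.70 in L-RUN, 9.82 in RUN and 9.92 in H-RUN. RUN pools the mice of L-RUN and H-RUN, so its place between them is no separate step of distance. Rgs4 lay at 12.01 in CE and 12.03 in LD and between 12.40 and 12.45 in the 3 running libraries. Ptgs2 was at 9.37 in CE and 9.72 in H-RUN, while L-RUN at 9.42 was near CE. The one lower gene was Pcsk1, a protease that cleaves prohormones, at 7.79 in CE and 7.47 in H-RUN (difference -0.31). By sign, 16 of the 43 were positive and 27 negative. Immediate early genes, chosen here after their values were seen, lay within 0.3 of 0. Egr1 was at -0.17, Fos at -0.16, Npas4 at -0.13 and Arc at -0.11. Of the listed members of the Fos, Jun, Egr and Nr4a families that were measured, only Fosb (0.09) was positive. Crem (0.11), Plk2 (0.17) and Ier5 (0.26) of the same list were positive too. Among 9 neurotrophin and receptor genes, Bdnf was past 0.3 and the median was -0.00.

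Kinases and stress genes gave single members past 0.3. Sgk1, a kinase induced by glucocorticoids, was at 10.60 in CE, 10.54 in LD, 10.79 in L-RUN, 10.88 in RUN and 11.08 in H-RUN. Its difference of 0.48 was the only one past 0.3 among 20 measured genes of the glucocorticoid response, which had a median of 0.02. Fkbp5, a chaperone of steroid receptors and a usual readout of this response, was at 0.06, and Tsc22d3, another usual readout, was at -0.03, both chosen after their values were seen. No gene of 34 heat shock proteins and chaperones differed by 0.3, with a median of -0.06. Rasgrp1, an exchange factor that couples diacylglycerol to Ras, was at 13.03 in CE and 13.63 in H-RUN (difference 0.60, 1.51-fold), while LD at 13.40 and RUN at 13.42 lay between and L-RUN was at 13.16. Prkcd, a protein kinase C that diacylglycerol activates, differed by 0.32, but it was higher still in LD (9.20) than in H-RUN (9.11), with CE at 8.80. These are the 2 of 46 genes of adenylyl cyclase, inositol trisphosphate and protein kinase C signaling past 0.3, and both are higher.

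Promoters of 4 of the 144 genes are shown as examples of genes with a match to a searched motif. The 250 bases before each start are given, with each match to the motif named for that gene in capitals. Other genes of the 144 hold matches as well and are counted below. Whether any factor acted on these genes was not tested. The sequences shown are RefSeq sequences on GRCm38.p6, read on the strand of the gene. A glucocorticoid response element (AGAACA and TGTTCT with any 3 bases between them) starts 189 bases before a RefSeq start of Sgk1, on chr10:21993640-21993889 of the plus strand.
Sgk1: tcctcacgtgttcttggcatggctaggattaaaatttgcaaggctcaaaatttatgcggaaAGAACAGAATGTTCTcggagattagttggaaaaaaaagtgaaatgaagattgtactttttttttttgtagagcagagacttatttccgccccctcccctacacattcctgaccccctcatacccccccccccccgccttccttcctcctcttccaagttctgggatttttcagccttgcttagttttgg
An E-box (CACGTG), the site of clock factors, starts 116, 58 and 44 bases before the start of Gm129, the older symbol of the clock repressor Ciart, on chr3:95882229-95882478 of the minus strand.
Gm129: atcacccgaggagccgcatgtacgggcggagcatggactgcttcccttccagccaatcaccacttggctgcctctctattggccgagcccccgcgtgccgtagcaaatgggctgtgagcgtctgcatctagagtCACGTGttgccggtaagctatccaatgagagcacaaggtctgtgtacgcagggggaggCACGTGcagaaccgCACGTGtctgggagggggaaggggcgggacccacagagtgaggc
A cyclic AMP response element (TGACGTCA) starts 72 bases before the start of Chgb on chr2:132781392-132781641 of the plus strand.
Chgb: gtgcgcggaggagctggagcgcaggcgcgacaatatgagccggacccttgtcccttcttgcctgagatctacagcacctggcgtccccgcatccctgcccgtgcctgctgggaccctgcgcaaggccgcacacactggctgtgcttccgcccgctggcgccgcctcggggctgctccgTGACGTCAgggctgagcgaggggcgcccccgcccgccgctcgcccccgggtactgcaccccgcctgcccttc
The same element starts 78 bases before the start of Pcsk1 on chr13:75089607-75089856 of the plus strand.
Pcsk1: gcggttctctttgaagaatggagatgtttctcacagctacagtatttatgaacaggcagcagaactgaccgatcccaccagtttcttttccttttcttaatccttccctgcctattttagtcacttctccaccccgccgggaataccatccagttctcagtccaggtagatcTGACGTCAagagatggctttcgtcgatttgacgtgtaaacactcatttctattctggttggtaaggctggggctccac
Both strands were searched, in windows from 250 bases before to 50 after the start. The glucocorticoid element was in 3 of 32851 windows (0.00913%), the E-box in 7.15% and the cyclic AMP element in 1.79%. Among 102 of the 144 genes with a window, 1 held the glucocorticoid element, 12 the E-box and 4 the cyclic AMP element. An AP-1 site (TGANTCA) was in 6 of the 102 and in 7.81% of all windows, and a serum response element (CCATA followed at once by TTAGG) was in none and in 0.0639%. Of the 4 genes with the cyclic AMP element, Chgb (0.41) was higher in H-RUN and Pcsk1 (-0.31), Zdbf2 (-0.39) and Ptpru (-0.44) were lower, the last pair named after their values were seen. The window of Sgk1 lies inside the annotated gene, which begins at 21882184, and which start was in use was not examined. A match of letters is a description and not a bound site.

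Genes of the extracellular matrix lay mostly on the lower side. Dcn, which encodes decorin, a small leucine-rich proteoglycan that binds collagen fibrils, had the largest difference of all genes. It was at 9.82 in CE, 9.74 in L-RUN, 9.45 in LD, 9.34 in RUN and 8.93 in H-RUN, a difference of -0.89 (1.85-fold lower in H-RUN). Ogn, which encodes the related osteoglycin, was at 8.90 in CE and 8.27 in H-RUN (difference -0.63), and here LD (8.95) and L-RUN (8.997) lay beside CE. All 11 small leucine-rich proteoglycans measured had negative differences, beside 6760 of all 13550 genes. Their median was -0.12, and Dcn and Ogn were the 2 past 0.3. Of 32 collagen chains, 6 were at least 0.3 lower in H-RUN and none was higher, beside 0.708% and 0.354% of all genes. The median of the chains was -0.06, or -0.03 without the trend with GC content. Col5a1, a chain of a fibril-forming collagen, was at 10.18 in CE and 9.50 in H-RUN (difference -0.68), with L-RUN at 9.92 and both LD and RUN at 9.74. Col6a1 (-0.60) and Col6a2 (-0.57), chains of the same microfibril collagen whose genes lie 85.2 kb apart on chromosome 10, had the same order of libraries, with CE highest and H-RUN lowest. Col23a1 (-0.47), Col1a2 (-0.40) and Col1a1 (-0.39) complete the 6. Col1a1 was at 7.99 in CE and 7.998 in L-RUN, and at 7.60 in both LD and H-RUN. Col1a2 was at 8.02 in CE and 7.62 in H-RUN, and its highest value was in L-RUN (8.24).

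Other matrix genes followed with fewer members. Thbs1, the matrix glycoprotein thrombospondin 1, was at 6.92 in CE and between 6.24 and 6.32 in the other 4 libraries, a difference of -0.60 that sets CE apart rather than H-RUN. Matn2 (-0.32), a matrilin, was the other of 32 matrix glycoproteins past 0.3, with a list median of -0.07. Timp2, an inhibitor of matrix metalloproteinases, was at 13.005 in CE and 12.48 in H-RUN (difference -0.52), the lowest of 30 matrix proteases and inhibitors. The highest of that list was Htra4, a secreted serine protease, at 8.63 in CE, 8.62 in LD and 9.20 in H-RUN (difference 0.57), with RUN at 9.17 and L-RUN at 9.15. Plekha2, an adaptor that binds phosphoinositides, had the same pattern (0.52), and its gene lies 181 bases from Htra4 on the same strand of chromosome 8, so reads of one and of a transcript that runs on from the other cannot be told apart in these values.

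Markers of leptomeningeal fibroblasts overlap with these matrix genes. Of 31 markers measured, 5 were at least 0.3 lower in H-RUN (Dcn, Ogn, Nov, Col1a2 and Col1a1) and none was higher. Beside them stand 0.708% and 0.354% of all genes. By sign, 24 were negative, beside 6760 of all 13550 genes, and the median was -0.08. The summed level of these markers on the log2 scale was 12.81 in H-RUN, 12.89 in LD, 13.01 in CE, 13.08 in RUN and 13.34 in L-RUN. H-RUN was thus the lowest and L-RUN the highest. None of the 34 markers was at 0 in all libraries, and Slc6a13 (-0.11), Slc22a6 (-0.05), Tbx18 (0.03) and Foxc1 (0.03), which are not matrix genes and were chosen after their values were seen, were within 0.3. Of 5 choroid plexus markers measured, 1 was past 0.3: Ttr, transthyretin, at 8.45 in CE and between 7.83 and 8.01 in the other 4 libraries (difference -0.48). The part of leptomeningeal and choroid plexus tissue in the matrix differences was not tested. With the listed markers of leptomeninges, choroid plexus and CA1 taken out of the count, 136 genes past 0.3 were left, with 47 higher and 89 lower. This only removes the listed genes and leaves every other difference unchanged, so it says nothing about the part of these tissues.

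**Figure D3:**
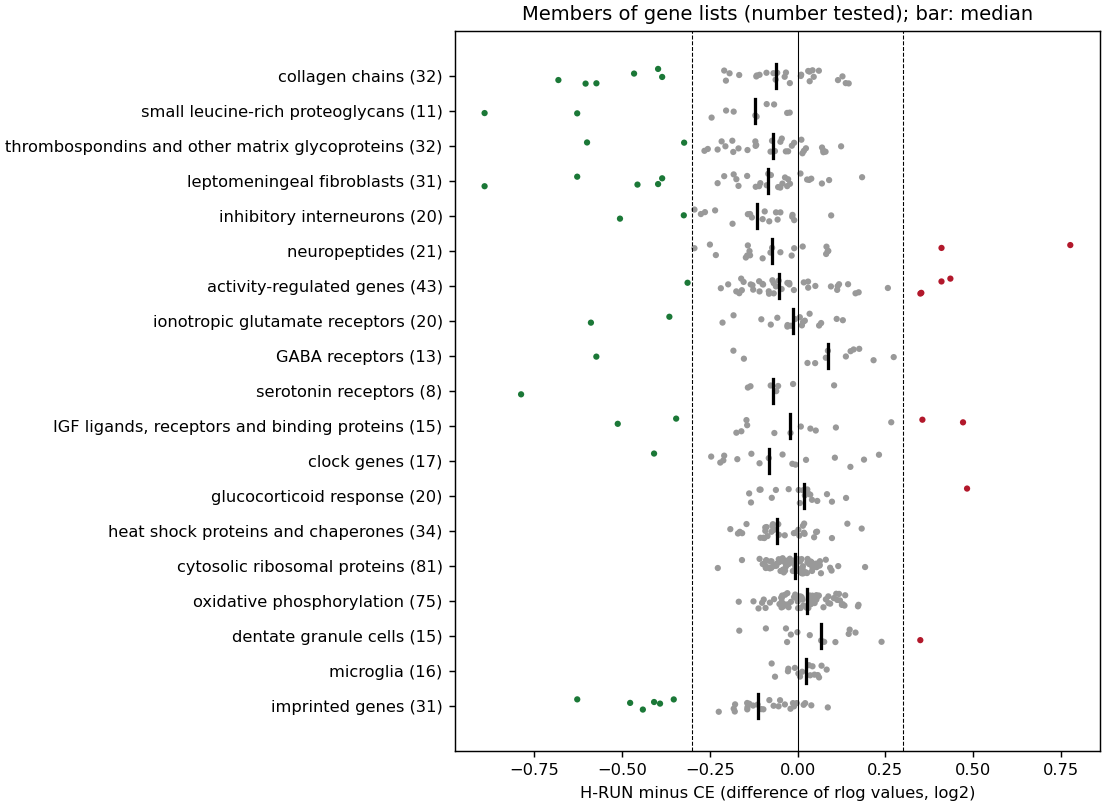
H-RUN minus CE (difference of rlog values, log2) for the measured members of 19 gene lists, 1 point per gene, with a bar at the median of each list and dashed lines at 0.3 on each side of 0. Collagen chains and small leucine-rich proteoglycans reach to the left (medians -0.06 and -0.12), whereas ribosomal proteins and microglia markers stay within the lines.

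Factors of the insulin-like growth factor (IGF) system differed in both directions. Of 15 genes measured, 2 were higher and 2 were lower by 0.3, and the median was -0.02. Pappa, a protease that cleaves IGF binding proteins, was at 7.14 in CE, 7.16 in LD, 7.28 in L-RUN, 7.496 in RUN and 7.61 in H-RUN (difference 0.47). Igfbp6, a binding protein, was at 8.23 in CE and 8.58 in H-RUN (0.36), with the highest value in L-RUN (8.68). Igfbp5, another binding protein, was at 12.62 in CE, 12.66 in LD and between 12.11 and 12.18 in the 3 running libraries (difference -0.51). Igfbp3 was at 9.35 in CE and 9.01 in H-RUN (difference -0.35). For Igfbp5 the 3 running libraries lay apart from both libraries without running, whereas for Igfbp3 L-RUN (9.23) lay between LD (9.12) and CE. Of 38 genes of the TGF-beta and BMP pathway, Acvr1c, an activin type I receptor, was past 0.3 (0.41). No gene of 32 in the Wnt list and none of 15 in the VEGF list lay past 0.3. Wnt4 (-0.27) and Figf (-0.21) were farthest from 0.

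Receptors and channels of neurons gave single genes rather than families. Htr2c, the serotonin 2C receptor, was at 9.12 in CE, 8.65 in LD, 8.77 in L-RUN, 8.51 in RUN and 8.34 in H-RUN, a difference of -0.79 (1.73-fold lower in H-RUN), and was the only one of 8 serotonin receptor genes past 0.3. Gpr101, an orphan receptor coupled to G proteins, was at 8.39 in CE and 7.56 in H-RUN (difference -0.83). Trhr, the receptor of thyrotropin-releasing hormone, was at 8.88 in CE and 8.35 in H-RUN (-0.53). In these 3 genes CE was highest, H-RUN lowest and the other 3 libraries between them. Gabra3, a subunit of the GABA-A receptor, went from 9.61 in CE to 9.03 in H-RUN (-0.57), while 10 of 13 GABA receptor genes had a positive sign and the median of the list was 0.09. Grik3, a kainate receptor subunit, was at 10.47 in CE, 10.42 in LD and between 9.88 and 10.05 in the runners (difference -0.59). Grin3a, an NMDA receptor subunit, had the same split, at 9.99 in CE and 9.62 in H-RUN (-0.36). These were the 2 of 20 ionotropic glutamate receptor genes past 0.3, with a list median of -0.01, and none of 10 metabotropic receptor and Homer genes was.

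Drd1a, the dopamine D1 receptor of granule cells and other neurons, was at 8.17 in CE, 8.21 in LD and 8.64 in H-RUN (difference 0.46). Scn4b, an auxiliary subunit of sodium channels, was at 7.72 in CE and 8.21 in H-RUN (0.48), but L-RUN (7.80) lay near CE and LD (8.003) near RUN (8.04). Of 70 potassium channel genes measured, Kcnj2, an inward rectifier, was higher (0.42) and Kcnf1 (-0.52), Kcnj16 (-0.44) and Kcnt1 (-0.32, or -0.297 without the trend with GC content) were lower, with a median of -0.00. Kcnj2 and Kcnj16 are neighbours, 38.2 kb apart on the same strand of chromosome 11, and differed in opposite directions. Copines, proteins that bind membranes in response to calcium, were split too: Cpne9 was higher (0.38), and Cpne7 (-0.60) and Cpne2 (-0.50) were lower, of 9 measured. For Cpne7, CE at 12.68 stood apart from the other 4 libraries, which lay between 12.08 and 12.27.

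Robo3, an axon guidance receptor and 1 of the 15 genes with the largest differences on the higher side, was at 10.72 in CE, 10.74 in LD, 11.17 in H-RUN, 11.20 in RUN and 11.27 in L-RUN, so the running libraries lay above both others. Epha5, an ephrin receptor, was at 11.37 in CE and 11.80 in H-RUN (0.43), with LD at 11.62. Cyp26b1, which breaks down retinoic acid, was at 8.49 in CE and 8.93 in H-RUN (0.45), but LD at 8.97 was higher than H-RUN. Bok, a member of the BCL2 family, was at 10.08 in CE and 10.62 in H-RUN (0.54). Lars2, a mitochondrial leucyl-tRNA synthetase, was higher by 0.53 and Rn45s, the precursor of ribosomal RNA, by 0.50. Both followed the same order of libraries, with CE lowest (14.08 for Rn45s) and L-RUN highest (14.66), and the library preparation selected polyadenylated RNA, and how much ribosomal RNA each library kept was not analysed here. In contrast, none of 81 cytosolic ribosomal protein genes and none of 75 oxidative phosphorylation genes differed by 0.3, with medians of -0.01 and 0.03.

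**Figure D4:**
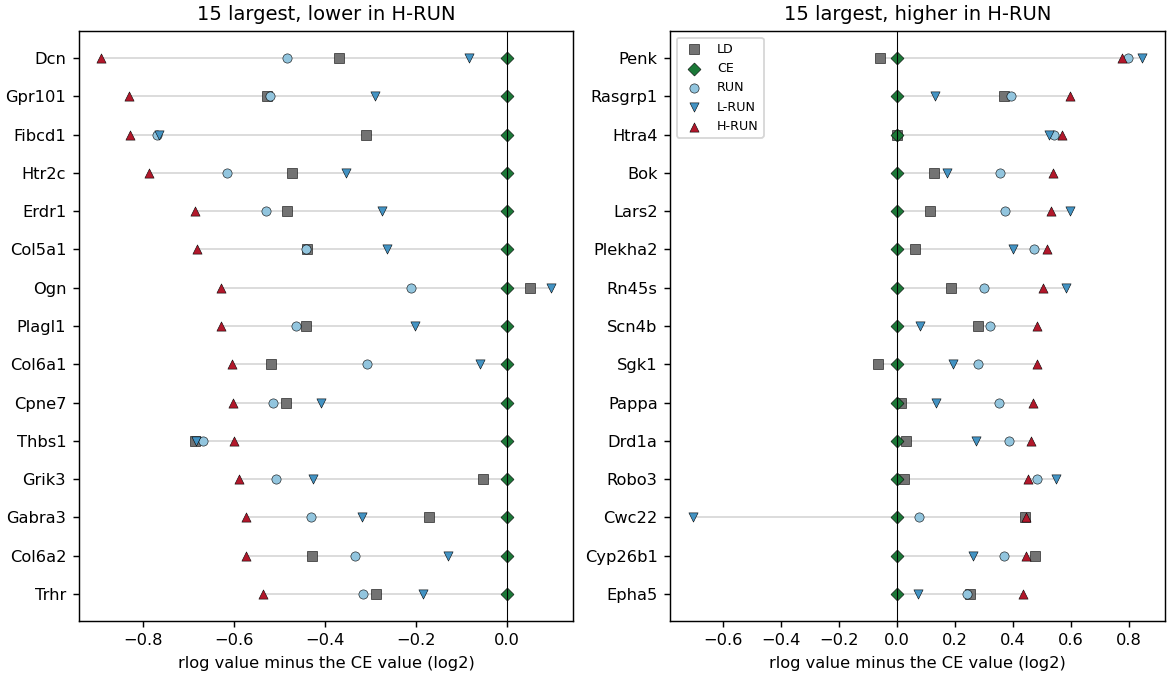
The rlog value of each library minus that of CE (log2, horizontal axis) for the 15 genes lowest (left) and the 15 highest (right) in H-RUN against CE, with 1 symbol per library and CE at 0. Penk, Htra4 and Robo3 have LD beside CE and the 3 running libraries together, whereas for Dcn, Gpr101 and Htr2c the other libraries are spread between CE and H-RUN.

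Markers of cell types were mostly within 0.3. Of 15 markers of granule cells, Lct was higher (0.35) and none was lower, with a median of 0.07. Inhibitory interneuron markers were negative for 19 of 20 genes, beside 6760 of all 13550, with a median of -0.11 beside 0.00026 for all genes. Kit (-0.51), a receptor tyrosine kinase, and Nos1 (-0.32), the neuronal nitric oxide synthase, were past 0.3. The summed level of these 20 markers was 15.35 in CE, 15.28 in LD, 15.27 in L-RUN, 15.24 in RUN and 15.21 in H-RUN. The genes that make GABA, Gad1 (-0.02) and Gad2 (-0.09), were nearer to 0 than Sst, and this choice was made after the values were seen. Removal of the trend with GC content left the median of the list at -0.11.

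CA1 pyramidal cells border the DG in the dissected tissue. Of 11 CA1 markers, 3 were lower in H-RUN (Dcn, Fibcd1 and Nov), 1 was higher (Ndst4, 0.33, and 0.28 without the trend with GC content) and 7 were within 0.3. By sign, 6 were negative and 5 positive, with a median of -0.06. Fibcd1, an acetyl-group-binding receptor of the cell surface, was at 10.66 in CE, 10.35 in LD and between 9.83 and 9.90 in the runners (difference -0.83, 1.77-fold lower). The summed level of the CA1 list was 13.005 in CE, 12.87 in LD, 12.74 in H-RUN, 12.69 in RUN and 12.66 in L-RUN. The positive members included Wfs1 (0.11), Pou3f1 (0.17) and Man1a (0.23), named after their values were seen, and the part of CA1 tissue in these differences was not tested. Of 15 markers of CA3 and CA2, 2 were higher and 1 was lower, and Bok and Nnat, named above and below, are the farthest from 0. Astrocytes had Agt as the 1 of 16 lower (-0.38), oligodendrocytes had Ermn as the 1 of 16 higher (0.35, but 0.296 without the trend with GC content), and none of 16 microglia, 15 endothelial, 12 mural or 10 mossy cell markers was past 0.3. Of the 12 ependymal and 9 blood cell markers listed, 5 and 1 were measured, and none was past 0.3.

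The clock genes had 1 of 17 past 0.3. By sign, 12 were negative and 5 positive, with a median of -0.08. Dbp, a transcription factor that is a direct output of the clock, was at 9.69 in CE, 9.43 in LD, 9.29 in H-RUN, 9.25 in RUN and 9.17 in L-RUN (difference -0.41). Gm129, shown above with its E-boxes, is not part of that count because its current symbol Ciart is not used in the files, and it was found by a synonym after the values were seen. It was at 7.51 in CE and 7.18 in H-RUN (-0.33), with RUN at 7.20 and L-RUN at 7.17. The other members were within 0.3. Hlf (-0.25), Per2 (-0.22), Nr1d1 (-0.21), Bhlhe40 (-0.21) and Nr1d2 (-0.17), which like Dbp are activated by the clock's positive arm, were negative, while Bhlhe41 (0.15) and Cry1 (0.02), which it activates too, were positive. Arntl, which encodes a part of that positive arm, was at 0.23 and Nfil3, a repressor that opposes Dbp, was at 0.19. These members were chosen after their values were seen. For Hlf, Per2, Bhlhe40 and Nr1d2 the LD library lay above CE, so CE was not the highest library there, whereas for Dbp, Gm129 and Nr1d1 it was. The time of day of collection is not given in the labels.

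**Figure D5:**
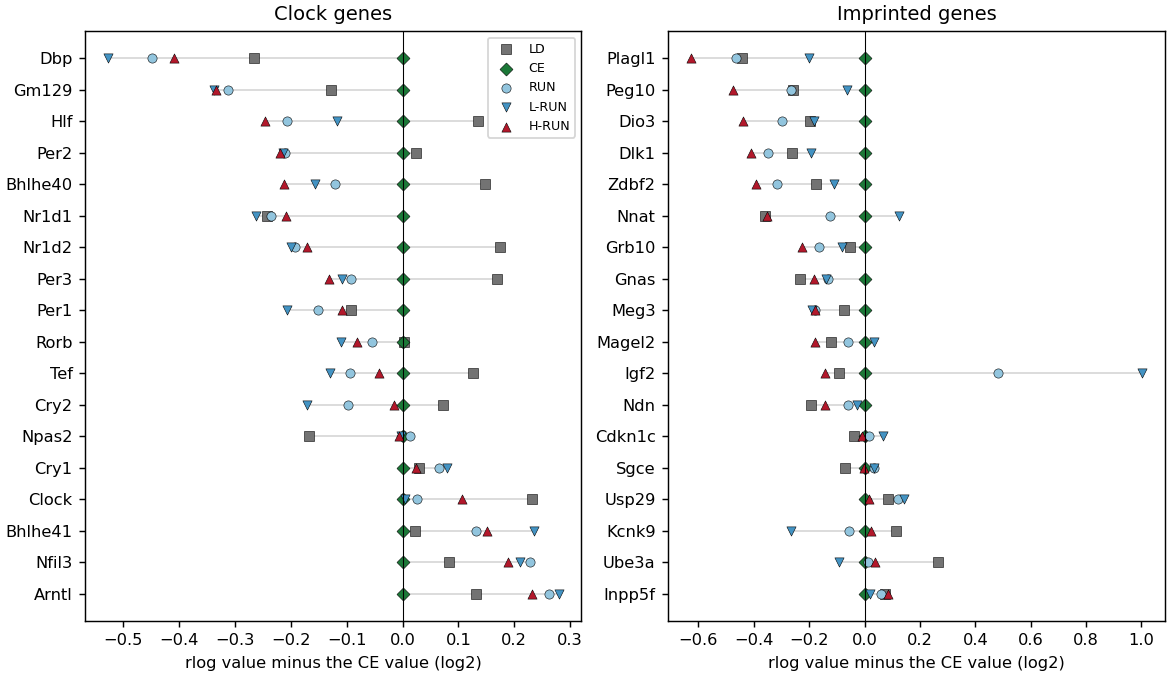
The rlog value of each library minus that of CE (log2, horizontal axis) for 17 clock genes and Gm129 (left) and for the 12 lowest and 6 highest of 31 imprinted genes (right), with 1 symbol per library and CE at 0. Dbp (-0.41) and Gm129 (-0.33) are lower in H-RUN and Arntl is higher (0.23), and 6 imprinted genes lie between -0.63 and -0.35 in H-RUN.

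Some genes on the list cannot be read with certainty. Atp6v0c, a subunit of the proton pump of vesicles and the only one of 19 V-ATPase genes past 0.3 (-0.52), has a pseudogene copy with which reads can be shared. Erdr1 (-0.68) lies in a repetitive region that the annotation used here does not place, and Tmem181a (-0.33) and Tmem181c-ps (-0.38), named after their values were seen, are near-identical copies. The study checked Cwc22, Bdnf, Cd74 and Prss22 by another method, so they are given here. Cwc22, a splicing factor, was at 13.24 in CE, 13.69 in H-RUN, 13.68 in LD, 13.32 in RUN and 12.54 in L-RUN (difference 0.45), so H-RUN and LD were alike. Cd74, the invariant chain of class II antigen presentation, differed by 0.03 and Prss22, a serine protease, by 0.07, and none of 11 measured antigen presentation genes was past 0.3. Of 15 prostaglandin genes, Ptgs2 was higher and Ptgds, the prostaglandin D synthase, was lower (-0.40), and the list's median of 0.02 became -0.00 without the trend with GC content.

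Over the 27 gene groups, 41 of the 721 different genes measured were past 0.3, and over the 18 cell type lists 17 of 218 were. Within each of these totals a gene that stands in several lists was counted once. The groups were chosen with results of these data known, so these counts are not set against the 1.06% of all genes as a result.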

How the data were processed

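RNA of microdissected DG was extracted with TRIzol and columns, and libraries of polyadenylated RNA were made with the TruSeq kit, 1 per group. Per the submitters' processing notes, reads were handled with CASAVA 1.8.2, TopHat2 2.0.10, HTSeq and DESeq2 1.10.1 on mm10. The authors deposited 1 rlog value per gene and library, on the log2 scale, after normalizing all 5 libraries at once. Counts are not in these files, so depth is unknown and neither a count model nor a counting interval was used.

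H-RUN minus CE was taken per gene for genes with a mean of at least 5 and read at a limit of 0.3. The technical SD came from how far RUN departed from H-RUN and L-RUN mixed in equal parts. The variance of that departure was taken as 1.5 times, and that of a difference as 2 times, the variance of 1 library. Transcript lengths, GC contents and positions came from GENCODE M21 on GRCm38, the same build as mm10, matched by symbol (99.3%). Trends were removed with a lowess curve (fraction 0.3). Promoters were RefSeq windows on GRCm38.p6 and no proteins are shown.

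Genes named were the 15 largest differences in each direction, up to 5 members past 0.3 in each direction of each list, or otherwise the member farthest from 0, and the 4 genes that the study measured by qPCR. Others are said to be chosen after their values were seen. The members and lists were chosen with earlier results of these data known, and the imprinted list was added after the values were seen. Alternatives were limits of 0.2 and 0.4, a minimum mean of 7 or none, centring, quantile normalization, a further limit of 3 technical SDs, removal of trends with the mean, length and GC content, and RUN in place of H-RUN. The scripts were tested on simulated data. Python 3.11.15, numpy 2.4.6, pandas 2.3.3, statsmodels 0.14.6 and matplotlib 3.10.9 were used.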

Additional observations from a re-analysis of the deposited data

Results flagged for a closer look

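For 2 genes the high and the low runners lay on opposite sides of CE by at least 0.3. Ptgds, which makes prostaglandin D2 in the leptomeninges, choroid plexus and oligodendrocytes, was at 11.94 in CE. Its value of 11.54 in H-RUN lay below this by a difference of -0.40, and its value in the low runners (13.61) lay above it by 1.67. The summed level of leptomeningeal markers was likewise lowest in H-RUN (12.81) and highest in L-RUN (13.34), and its part in the Ptgds values was not tested. Cwc22 was 0.45 higher in H-RUN and lower in L-RUN (-0.70) than in CE. The Cwc22 locus is known to vary in copy number among mouse strains, and CD1 mice are outbred, but genotypes were not analysed here. With 1 library per group and the CE library shared, the difference between the high and the low runners was not tested for either gene.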

How the results depend on the processing

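The number of genes past the limit moved with the limit itself. At 0.4 there were 64 (23 higher and 41 lower in H-RUN), and at 0.2 there were 504 (181 higher and 323 lower). Under the other alternatives (centring, quantile normalization, a minimum mean of 7 or none above 0, a further limit of 3 technical SDs, removal of the trends with the mean, length and GC content, and RUN in place of H-RUN) the total ran from 113 to 147. Leaving out the markers of leptomeninges, choroid plexus and CA1, an alternative chosen after seeing the data, gave 136. It only takes the listed genes out of the count. Removal of the GC trend had the widest reach among named genes: 26 of the 83 with a value moved by at least their technical SD. Under quantile normalization 2 did. Of the 66 past 0.3, 3 were no longer past it without the GC trend, namely Ndst4 (0.28), Ermn (0.296) and Kcnt1 (-0.297). None of the 83 with a value changed sign among those past 0.3. Bdnf went from 0.35 to 0.31, Ptgs2 from 0.35 to 0.302 and Dcn from -0.89 to -0.95. Among the list medians printed, those of the IGF system (-0.02 to -0.05), ionotropic glutamate receptors (-0.01 to -0.03) and collagens (-0.06 to -0.03) moved by over 1.5 times with it, and those of potassium channels (0.01) and neurotrophins (0.02) turned positive. No paired analysis was possible because each group has 1 library, and for the same reason no library could be left out. Differences between mice, depth and the shrinkage of the rlog values limit every value, and low genes most.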

Other observations

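Imprinted genes, which are expressed from 1 parental copy and many of which act in growth, were examined after Plagl1 was seen among the largest differences, so the list is not independent of the values. Of 31 measured, 6, Plagl1 among them, were at least 0.3 lower in H-RUN and none was higher. Of all 13550 genes, 0.708% were lower by that much and 0.354% were higher. In the list 27 had a negative sign, beside 6760 of all genes, and the median was -0.11. The list's median was also -0.11 after removal of the trend with GC content. Plagl1, a zinc finger transcription factor, was at 10.52 in CE and 9.89 in H-RUN (difference -0.63), with L-RUN at 10.32, LD at 10.08 and RUN at 10.06. Peg10, a gene derived from a retrotransposon, was at 10.51 in CE and 10.04 in H-RUN (-0.48), and Zdbf2 was at 9.49 and 9.10 (-0.39). Dlk1, a Notch ligand homolog, and Dio3, the deiodinase that inactivates thyroid hormone, belong to the same imprinted domain on chromosome 12. Dlk1 was at 6.59 in CE and 6.18 in H-RUN (-0.41), and Dio3 at 6.99 and 6.55 (-0.44). Nnat was at 12.98 in CE and 12.63 in H-RUN (-0.35), with L-RUN at 13.10 above CE. In Plagl1, Peg10, Dlk1, Dio3 and Zdbf2, CE was the highest and H-RUN the lowest of the 5 libraries.

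A few other genes past 0.3 were named after their values were seen and form no list. Smo, the transducer of Hedgehog signals, was at 10.24 in CE and 9.87 in H-RUN (-0.38). Fat4, a giant cadherin, was at 11.70 in CE, 11.74 in LD and between 11.32 and 11.41 in the runners (-0.37), and the related Fat1 had a difference of -0.37. Efnb2, an ephrin ligand, was at 10.26 in CE and 9.80 in H-RUN (-0.46), and Efna5 had a difference of -0.32, while the receptors Epha5 (0.43) and Epha7 (0.33) and the semaphorin Sema3c (0.39) were higher in H-RUN.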
